A study of Mus musculus with 2 samples.

Results

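Dividing T cells were defined as cell barcodes that carried both T cell receptor complex transcripts and transcripts of proliferation genes. A barcode was a member when it held over 2000 genes, under 15% mitochondrial transcripts, at least 2 unique molecular identifiers (UMIs, tags that each count 1 captured transcript) of Cd3d, Cd3e and Cd3g together, and at least 4 UMIs of Mki67 and Top2a together. It was kept only with at most 2 UMIs of the macrophage genes Csf1r, C1qa, C1qb and C1qc together and under 3 UMIs of Trap1a, a gene of the plasmacytoma cells. By this rule 229 of 11123 barcodes were dividing T cells, 221 in the TAK-931 tumour and 8 in the vehicle tumour. T barcodes that met the other conditions but held no Mki67 or Top2a UMI were taken as non-dividing, 249 and 12 barcodes. The remaining 137 and 3, with 1 to 3 such UMIs, were left as intermediate.

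The data were single-cell RNA counts of allografts of J558, a mouse plasmacytoma line, that had grown under the skin of female BALB/c mice. One tumour came from a mouse given TAK-931, an oral inhibitor of the replication kinase CDC7, at 60 mg/kg once daily for 6 days, and 1 from a mouse given the vehicle, 0.5% methylcellulose. Both tumours had been dissociated with the same kind of enzyme kit, so T cells were sampled together with tumour and stromal cells. Each treatment had 1 library, therefore no test between treatments was possible, and every interval below is a 95% interval that covers counting error only.

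T cells that meet antigen leave the resting state and pass through the cell cycle, and clonal expansion of CD8 T cells supplies the cytotoxic cells of a tumour. DNA replication starts when CDC7, with its activator DBF4, phosphorylates the MCM helicase that ORC, CDC6 and CDT1 have loaded onto chromatin. S phase then draws on nucleotide synthesis and histone supply, and the G2/M genes, which include the cyclins A and B, CDK1 and the spindle proteins, are expressed late in the cycle. Regulatory T cells, marked by the transcription factor FOXP3, also divide in tumours and restrain other T cells.

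Of 4565 vehicle barcodes (144767193 UMIs in all) 3441 passed the gene and mitochondrial limits, at a median depth of 40504 UMIs. Of 6558 TAK-931 barcodes (77369283 UMIs) 3488 passed, at a median depth of 15097. T barcodes were 0.668% of the passing barcodes in the vehicle tumour and 17.4% in the TAK-931 tumour. The libraries shared 8 barcode sequences, none of them a member. No doublet caller was run, and the study's methods name none.

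The members were chosen by their counts of Cd3, Mki67 and Top2a, so these were high in them by construction. In the TAK-931 tumour the sum of Mki67, a nuclear antigen of cycling cells, and Top2a, the topoisomerase that untangles replicated DNA, ranged from 4 to 171 UMIs with a median of 19. The median was 7 UMIs for Mki67 and 11 for Top2a, and both genes ranged down to 0, since either could carry a barcode over the limit. Cd3 genes gave 2 to 317 UMIs with a median of 70, against a median of 31 in the non-dividing T barcodes. Of 16 T cell identity genes, including the receptor constant genes and the kinases Lck and Zap70, none was at 0, and their summed level was 8033 counts per 1000000 UMIs of the summed set (CPM) in members and 8249 CPM in non-dividing T barcodes. Cd3d, Cd3e and Cd3g are among the 16 and were required by the rule in both sets, so the sums describe the selection in part. The other 13 genes, which the rule did not use, were detected in the members as well.

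Members were also deeper. Their UMIs ranged from 7791 to 83377 with a median of 24412, against 5504 to 54362 with a median of 9550 in non-dividing T barcodes, and the median number of genes was 4375 against 2591. The share of mitochondrial transcripts had a median of 4.79% against 5.11%. A limit on raw UMIs favours deep barcodes, and how far the depth came from the limit or from the RNA content of cycling cells was not tested. For this reason shares of barcodes are given below also after each barcode was thinned at random to 4000 UMIs, and gene levels as CPM of the summed counts.

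**Figure D1:**
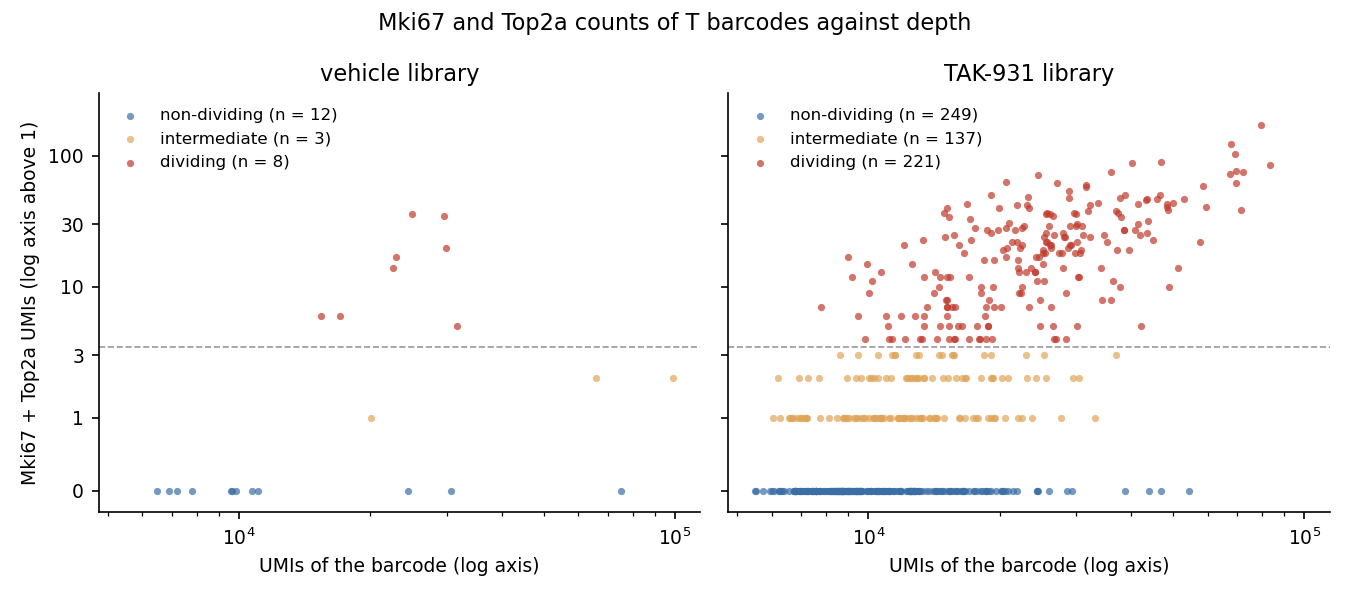
Summed Mki67 and Top2a UMIs (vertical axis) against total UMIs (horizontal axis, log scale) in each T barcode of both tumours. Members lay at 4 UMIs and above, with a median of 24412 total UMIs in the TAK-931 tumour, and the 249 non-dividing barcodes at 0 lay lower, with a median of 9550.

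The limit cut a continuous range. The 31 members with 4 or 5 UMIs had a median of 28.1 S phase and helicase UMIs per 10000 and 41.0 G2/M UMIs per 10000, at a median depth of 16413 UMIs. The 18 T barcodes just outside, with 3 UMIs, had 22.5 and 31.7 per 10000 at a median depth of 14616 UMIs. Barcodes with 1 UMI had 15.3 and 24.3 per 10000 (78 barcodes), and members with 20 UMIs or more had 63.2 and 99.5 (109 barcodes). The barcodes beside the limit on either side were therefore close to each other in both phase sums.

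In the vehicle tumour 34.8% of T barcodes were dividing (8 of 23; exact interval 16.4 to 57.3%), and in the TAK-931 tumour 36.4% (221 of 607; 32.6 to 40.4%). The difference was 1.63 percentage points with an interval of −19.0 to 18.1, which is too wide to show either alike or unlike shares. After thinning, the share of T barcodes with any Mki67 or Top2a UMI was 30.4% and 43.7%, and the difference of 13.2 points had an interval of −7.58 to 28.6. Against all passing barcodes, dividing T cells were 0.232% in the vehicle tumour and 6.34% in the TAK-931 tumour, or 6.10 points more (5.31 to 6.97). T barcodes as a whole differed in the same direction, as given above, and with 1 tumour per treatment the treatment and the tumour cannot be told apart. The limit on genes left out 39 further T barcodes of the vehicle tumour and 347 of the TAK-931 tumour, and with them T barcodes were 1.36% (62 of 4565) and 14.5% (954 of 6558) of all barcodes. With lower gene limits the dividing share of T barcodes fell in both tumours, and further in the vehicle tumour, as given at the end. Passing T barcodes were deeper in the vehicle tumour, with median depths of 20024 against 13441 UMIs.

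Within the TAK-931 tumour the thinned share with any Mki67 or Top2a UMI was 43.7% in T barcodes, 7.32% in macrophage-like barcodes, 32% in NK-like barcodes and 58.2% in J558-like barcodes. T barcodes exceeded the macrophage-like barcodes by 36.3 points (32.2 to 40.5) and lay below the J558-like barcodes by 14.6 points (1.97 to 26.3). The difference from the NK-like barcodes was 11.7 points, with an interval of −8.32 to 27.0. T barcodes of this tumour were thus placed between its macrophage-like and its tumour-like barcodes, and were not separated from the NK-like ones.

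The 8 vehicle members were too few for a comparison and are given one by one. Members 1, 5 and 8 carried Cd8a and Cd8b1, the 2 chains of the CD8 coreceptor, with 18, 9 and 6 UMIs of Cd8a and 21, 9 and 7 of Cd8b1, and none of them had a Cd4 UMI. Members 3 and 7 carried Cd4 with 2 and 3 UMIs together with Foxp3 at 6 and 2 UMIs. Member 2 carried both Cd8 genes (4 and 2 UMIs), Cd4 (2) and Foxp3 (6). Members 4 and 6 carried neither coreceptor and no Cd3e, but 2 and 6 UMIs of Trdc, the constant gene of the delta chain of the γδ T cell receptor. The vehicle members thus spread over all 4 coreceptor classes.

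Gzmb, which encodes the serine protease granzyme B, had 107 UMIs in vehicle member 6, 37 in member 2 and 12 in members 1 and 5. In S phase genes the 8 vehicle members ranged from 15.6 to 79.3 UMIs per 10000 with a median of 55.8, and in G2/M genes from 34.8 to 150 with a median of 77.2. The TAK-931 members had medians of 55.1 and 83.0, and their ranges enclosed those of the vehicle members. One vehicle member held dendritic cell markers at 18512 CPM, and the median over all 8 was 55.7 CPM. J558 markers summed to 985 CPM in the vehicle members and to 106505 CPM in the vehicle library. Markers of B cells, neutrophils and fibroblasts were all at 0 in the members, and 9 of 11 macrophage markers were at 0. NK markers summed to 155 CPM in the vehicle members against 1.60 CPM in the vehicle library, and all their UMIs were in members 4 and 6, with 9 and 21. Of these 6 and 9 were of Ncr1, a receptor gene that defines NK cells but is also known in some T cells. Member 4 had 3 Cd3d and 24 Cd3g UMIs, and member 6 had only 2, of Cd3g, so the T cell label of member 6 in particular rests on few UMIs. Without both, 6 vehicle members remain, a count that does not consider the dendritic cell markers.

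Both phases were present among the TAK-931 members. S phase and helicase genes, 59 genes together, ranged from 9.16 to 106 UMIs per 10000 with a median of 55.1, against 1.22 to 44.0 with a median of 14.0 in non-dividing T barcodes. G2/M genes ranged from 15.9 to 212 with a median of 83.0, against 4.12 to 86.9 with a median of 21.8. In 54 of 221 members the S phase sum exceeded the G2/M sum, as it did in 4 of the 8 vehicle members. The G2/M sum of 99 members lay above that of every non-dividing T barcode, and the rest overlapped with them. Dividing CD8 barcodes had medians of 57.0 and 86.2, and dividing CD4 barcodes 38.5 and 76.2. These sums follow Top2a and Mki67 in the same barcodes and are therefore a description of what the rule selected.

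**Figure D2:**
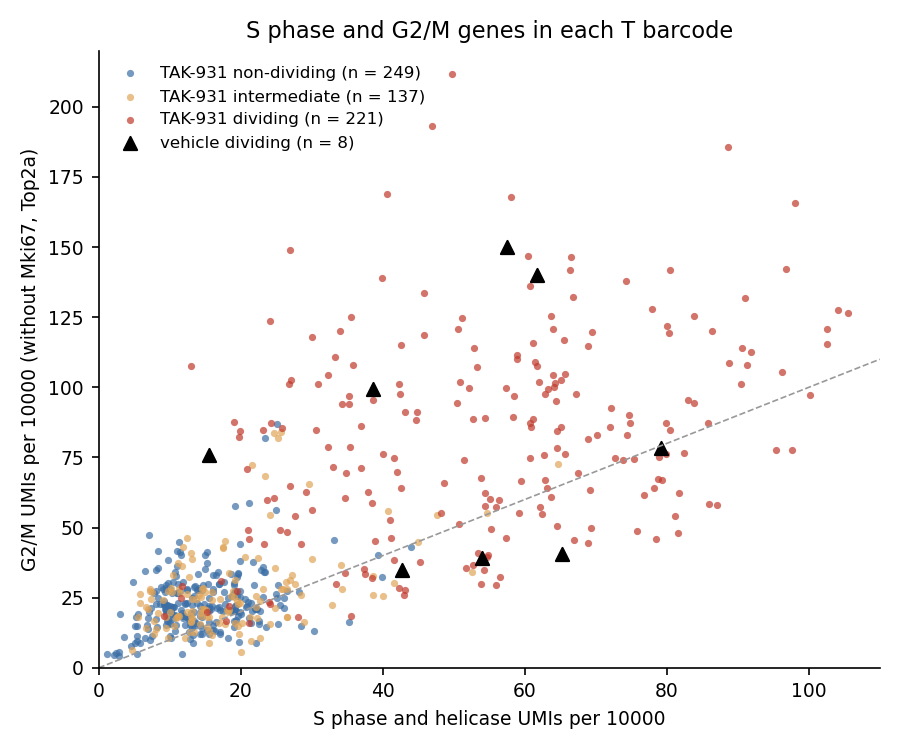
S phase and helicase UMIs per 10000 (horizontal axis) against G2/M UMIs per 10000 (vertical axis) in each T barcode, by division class, with the 8 vehicle members as triangles and a dashed line where both are equal. The TAK-931 members spread from 9.16 to 106 in S phase genes and from 15.9 to 212 in G2/M genes, and 54 of 221 lay on the S phase side of the line.

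CD8 was the main lineage of the dividing T cells. In the TAK-931 tumour 76.0% of members carried Cd8a or Cd8b1 without Cd4 (168 of 221; exact interval 69.8 to 81.5%), against 63.9% of non-dividing T barcodes (159 of 249; 57.5 to 69.8%), a difference of 12.2 points with an interval of 3.85 to 20.2. Thinned to 4000 UMIs, the shares were 78.7% and 63.5%, a difference of 15.3 points (7.08 to 23.1). Cd4 without Cd8, the mark of helper and regulatory T cells, was found in 11.3% of members (25) and 18.5% of non-dividing T barcodes (46), and the difference was −7.16 points (−13.5 to −0.658). Thinning left 3.17% and 11.6%, and the difference was −8.48 points (−13.3 to −3.78). Members thus held more CD8 barcodes and fewer with Cd4 alone detected at both depths, beyond counting error within this library. The thinned CD4 shares rested on 7 members, against 25 at full depth, and on 29 non-dividing barcodes, against 46. How far they follow Cd4 detection rather than lineage was not tested.

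Foxp3 was detected in 15.8% of members (35) and 20.5% of non-dividing T barcodes (51). The difference was −4.64 points with an interval of −11.5 to 2.41, and −4.85 points (−10.9 to 1.30) from the thinned shares of 10.4% and 15.3%, so that it was not separated from 0. It depended on the barcodes used, at −12.8 points (−23.1 to −2.69) between 10000 and 30000 UMIs and 3.97 points (−6.93 to 15.9) where no Trap1a, Csf1r or C1q UMI was allowed. Among CD4 barcodes 88% of members (22 of 25) and 73.9% of non-dividing barcodes (34 of 46) carried Foxp3, a difference of 14.1 points (−6.71 to 30.3). In the same 25 and 46 barcodes, called CD4 at full depth, Foxp3 was found in 60% and 58.7% after thinning. Most dividing CD4 barcodes were therefore Foxp3-positive, and CD8 barcodes were not, with 0.595% of members and 0.629% of non-dividing barcodes. Of the 35 Foxp3-positive members, 22 were CD4, 8 carried both coreceptors, 4 neither and 1 was CD8.

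Barcodes with both coreceptors were 5.88% of members (13) and 4.82% of non-dividing T barcodes (12). Barcodes with neither were 6.79% (15) and 12.9% (32), a difference of −6.06 points (−11.5 to −0.603), which after thinning was −5.75 points (−12.8 to 1.502). Whether NK cells were among the barcodes with neither was not tested. Trdc was found in 4.07% of members (9) and 0.803% of non-dividing T barcodes (2), 3.27 points apart (0.443 to 6.80), but the thinned shares were 1.36% and 0.803%, 0.554 points apart (−1.71 to 3.18). After thinning only 3 members and 2 non-dividing barcodes kept a Trdc UMI. The difference in Trdc was therefore seen at full depth, and the counts at equal depth were too few to show whether it remained.

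The same genes were counted in macrophage-like barcodes, 1707 at a median of 14907 UMIs, to set a level against which such shares can be read. Of these 6.85% had a Cd8 UMI, 5.33% a Cd4 UMI and 0.117% a Foxp3 UMI, and 1.93%, 1.87% and 0% after thinning. Whether these UMIs came from free RNA, doublets or the cells' own transcripts was not tested. The class was defined by 0 Cd3 UMIs and is shallower than the members, so it can understate free T cell RNA. With any number of Cd3 UMIs allowed, a setting added after the data had been seen, 2185 macrophage barcodes gave 13.8%, 6.96% and 1.46%, and 7.78%, 2.24% and 0.549% thinned, but these may include doublets with T cells. The thinned shares of members were 80.1% for Cd8 and 10.4% for Foxp3, above both sets of values. For Cd4 the thinned share of members was 4.52% (exact interval 2.19 to 8.16%), which was not separated from the 2.24% (1.66 to 2.95%) of the wider macrophage set. Macrophages can express Cd4 themselves, and in the vehicle tumour, where T barcodes were few, 11.3% of macrophage-like barcodes had a Cd4 UMI (21 of 186) and 0.538% a Cd8 UMI, so for Cd4 this class gives no measure of free T cell RNA. Read from the other side, 39.3% of CD8 barcodes were dividing (168 of 427), 26.3% of CD4 barcodes (25 of 95) and 31.0% of Foxp3-positive barcodes (35 of 113). CD8 exceeded CD4 by 13.0 points (2.37 to 22.1).

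**Figure D3:**
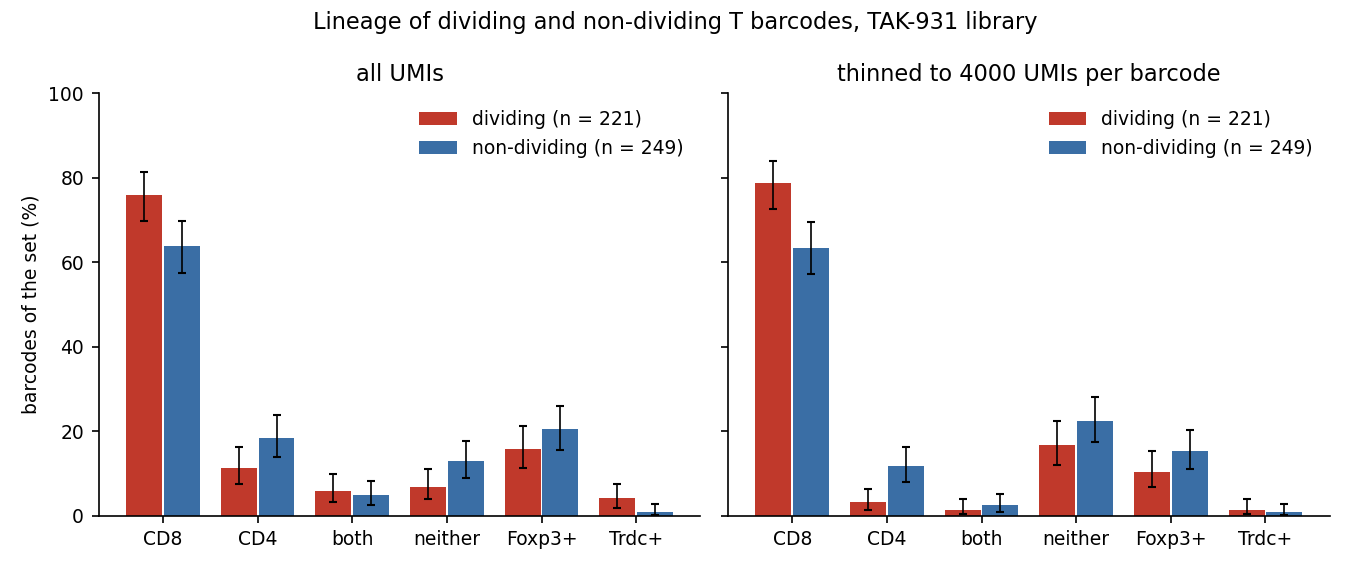
Shares of dividing and non-dividing T barcodes of the TAK-931 tumour (percent, vertical axis) in each coreceptor class and with Foxp3 or Trdc, with exact 95% intervals. CD8 made up 76.0% of members and 63.9% of non-dividing T barcodes, and CD4 11.3% and 18.5%.

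Gene levels were compared from summed counts, first for all T barcodes of the TAK-931 tumour. Of 8728 genes with at least 50 UMIs in both sets together, 8.73% were over 2-fold higher in members and 8.55% over 2-fold lower, with no replicate to set a threshold by. All ratios of dividing to non-dividing barcodes share the barcodes the rule selected, so they describe the members and are not tests. Over 11865 genes with at least 10 UMIs the median log2 ratio was −0.05.

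The highest ratios outside the helicase, S phase, G2/M and histone lists also belonged to genes of division, some of them on the E2F and repair lists. Kif4, a chromosome-associated kinesin, had 221 UMIs in members, was seen in 50.7% of them, and had none in non-dividing T barcodes, which makes it at least 35.5-fold higher against a floor of 3 counts over the set. That floor is used for each such value, and the exact interval of the ratio reaches lower, to 4.84 on the log2 scale for Kif4. Cdca5, which protects sister chromatid cohesion, was at least 28.6-fold higher, Lrr1, a factor of replisome removal, at least 25.7-fold, Mybl2, a transcription factor of late cycle genes, at least 24.9-fold, and the E2F repressors E2f8 and E2f7 at least 23.6- and 23.1-fold. Pclaf, the PCNA clamp-associated factor, was at 784 CPM in members and 38.5 CPM in non-dividing barcodes, a log2 ratio of 4.35, and was detected in 95.0% and 22.9% of them. The others named by rank were Mtfr2, at least 18.1-fold higher, Esco2, Fbxo5, Sgo2a, Bub1b, Aspm, Brca1 and Knl1, and all but the mitochondrial factor Mtfr2 are known for replication, cohesion, mitotic or repair roles.

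At the other end, the lowest ratios belonged to fibroblast genes. Dcn, the matrix proteoglycan decorin, was at 0.334 CPM in members and 469 CPM in non-dividing T barcodes, a log2 ratio of −10.45. Cpxm1, Sfrp2, Ptx3, Lum, Plpp3, Efemp1, Rarres2, Saa3, Cxcl12, Ccl11, Mmp2, Pdpn, Tnxb and Cxcl14 completed the lowest 15. Summed over all 5 fibroblast markers the level was 206 CPM in members, where 173 barcodes had no such UMI and the highest had 39885 CPM, and 6794 CPM in non-dividing T barcodes. Barcodes with over 10 fibroblast, endothelial and dendritic cell marker UMIs per 10000, called mixed here, were 4.52% of members (10 of 221) and 10.8% of non-dividing T barcodes (27 of 249).

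The other cell type lists differed less. Macrophage markers summed to 217 CPM in members and 597 CPM in non-dividing T barcodes, against 15693 CPM in the whole library, and dendritic cell markers to 356 and 1591 CPM against 13645. J558 markers summed to 239 and 402 CPM against 15109, with 2 of 12 at 0 in members. Of the lists given here, that of NK markers alone was higher in members, at 96.5 against 62.8 CPM, and both were above the 37.5 CPM of the whole library. Within CD8 barcodes this list was at 61.1 CPM in members and 74.0 CPM in non-dividing barcodes. Of the members 137 had no NK marker UMI and the highest had 1452 CPM. Whether some members were NK cells was not tested. B cell markers were at 0.167 and 4.51 CPM, with 4 of 5 at 0 in members, neutrophil markers at 2.67 and 7.63 CPM and endothelial markers at 23.9 and 61.4 CPM. Because of these differences the gene groups below are given for CD8 barcodes, where the mixed share was 1.79% of members (3 of 168) and 3.77% of non-dividing barcodes (6 of 159), and again without the mixed barcodes.

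In CD8 barcodes 9.89% of 7525 genes were over 2-fold higher in members and 3.53% over 2-fold lower, and without the mixed barcodes 10.0% and 2.85% of 7403 genes. The median log2 ratio over all genes with at least 10 UMIs was 0.01 with the mixed barcodes and 0.03 without them. Depth still differed, so a window of 10000 to 30000 UMIs was added after the first values were seen. The window also left out the mixed barcodes, so its values differ from the others in both respects. It held 112 dividing and 64 non-dividing CD8 barcodes with median depths of 18972 and 12515 UMIs. In the window 11.4% of 9289 genes with at least 10 UMIs were over 2-fold higher and 4.63% over 2-fold lower, and 7.15% and 1.29% of 5653 genes with at least 50.

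The CDC7 kinase and helicase genes were higher in dividing CD8 barcodes as a group, all but Dbf4 of the 23 by over 2-fold (22), with a median log2 ratio of 2.69, or 2.48 with genes at 0 set to their bound. The drug's own target Cdc7 gave 0 to 4 UMIs in dividing CD8 barcodes and 0 to 1 in non-dividing ones, 86 UMIs in all against 4, and was found in 36.9% and 2.52% of barcodes. That is 19.3 against 2.37 CPM, a log2 ratio of 3.02 (1.61 to 4.93), and 2.98 within the depth window. Its activator Dbf4 was detected in many non-dividing barcodes too, at 111 against 74.0 CPM, a log2 ratio of 0.58 (0.30 to 0.88), and 1.05 (0.60 to 1.53) in the window. The number of the 23 genes over 2-fold was 20 without the mixed barcodes and 21 in the window, where Mcm6 (0.92) and Gins4 (0.92) were under it.

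The helicase subunits followed with different sizes. Mcm5 gave 0 to 21 UMIs with a median of 4 in dividing CD8 barcodes and 0 to 3 with a median of 0 in non-dividing ones, 164 against 21.9 CPM, a log2 ratio of 2.90 (2.43 to 3.42). Mcm3 was at 2.99, Mcm2 at 2.69, Mcm7 at 2.48, Mcm4 at 1.96 and Mcm6 at 1.04 on the same scale, and the intervals of Mcm2, Mcm3, Mcm5 and Mcm7 overlapped and that of Mcm6 (0.80 to 1.29) overlapped none. The loading factor Cdc6 had 127 UMIs against 2, a log2 ratio of 4.59 (2.70 to 7.65), while its partner Cdt1 was at 1.84 and Gmnn, which encodes the Cdt1 inhibitor geminin, at 2.26. Cdc45, part of the active helicase, was at 3.58 and Mcm10, which helps to activate it, at 4.77 (2.89 to 7.83) with 2 UMIs in non-dividing barcodes.

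S phase genes outside the helicase were over 2-fold higher for 33 of 36, with a median of 2.48. Rrm2, the regulated subunit of ribonucleotide reductase, gave 0 to 35 UMIs with a median of 2 in dividing CD8 barcodes and 0 to 1 with a median of 0 in non-dividing ones, 144 against 2.96 CPM and a log2 ratio of 5.601 (4.37 to 7.23). Pcna, the sliding clamp of the polymerases, was found in most non-dividing barcodes as well, with medians of 14 and 2 UMIs, 501 against 198 CPM, and a log2 ratio of 1.34 (1.17 to 1.51). Clspn, the checkpoint mediator claspin, stood at 4.46 and Uhrf1, which carries DNA methylation through replication, at 4.20. The replication-dependent histone genes, whose transcripts mostly lack a poly(A) tail and are poorly captured by 3′ chemistry, were higher for 11 of 11, with a median of 3.27.

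G2/M genes were over 2-fold higher for 51 of 55, with a median of 2.97, or 2.85 with the 5 genes at 0 in non-dividing barcodes set to their bound. Without the mixed barcodes these were 3.34 and 2.95. Ccna2, cyclin A2, had 366 UMIs in dividing CD8 barcodes, 0 to 17 in each with a median of 1, against a single UMI in all 159 non-dividing barcodes. That ratio was 7.11 on the log2 scale with a wide interval of 4.63 to 12.4. Cdk1, the mitotic kinase, was at 102 against 5.92 CPM (4.10; 3.21 to 5.17), with 0 to 14 UMIs and a median of 2 in dividing and 0 to 2 and a median of 0 in non-dividing barcodes. Birc5, the survivin of the chromosomal passenger complex, was at 289 against 13.6 CPM (4.41), Ccnb2 at 123 against 11.3 CPM (3.45), and Ube2c, the ubiquitin ligase partner of mitotic exit, at 284 against 36.1 CPM (2.97). Cdc20, which activates the anaphase-promoting complex, was at 38.5 against 5.33 CPM (2.85; 1.89 to 4.01). The 4 genes of the list under 2-fold included Jpt1, at 0.17.

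Promoter sequences are shown for 4 of these genes because the share of promoters that held a given short element differed between the G2/M list and the S phase and helicase lists. Each is the stretch of 250 bases before the annotated start, read 5′ to 3′ on the gene's strand from RefSeq on GRCm38.p6 (mm10). Capitals mark the motifs searched on both strands, which were the cell cycle homology region (CHR, read as TTTGAA with its complement TTCAAA and as TTTAAA), the CCAAT box (with its complement ATTGG) and the E2F-type motif (GCGGGAA with its complement TTCCCGC), the last added after the data had been seen. Cdk1 lies on the minus strand (chr10:69352913-69353162) and so does Cdc20 (chr4:118437344-118437593), while Cdc6 (chr11:98907901-98908150) and the second annotated Cdc7 start (chr5:106964311-106964560) lie on the plus strand. The first annotated Cdc7 start (chr5:106964072-106964321) held none of these motifs in its 250 bases, and the Mcm5 promoter (chr8:75109259-75109508) held a CHR and CCAAT boxes but no E2F-type motif.
Cdk1: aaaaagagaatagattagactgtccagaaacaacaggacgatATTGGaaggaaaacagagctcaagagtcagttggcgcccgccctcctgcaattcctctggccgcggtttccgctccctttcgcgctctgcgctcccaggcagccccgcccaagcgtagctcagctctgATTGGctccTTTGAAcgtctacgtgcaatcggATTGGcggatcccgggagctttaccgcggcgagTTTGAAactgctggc
Cdc20: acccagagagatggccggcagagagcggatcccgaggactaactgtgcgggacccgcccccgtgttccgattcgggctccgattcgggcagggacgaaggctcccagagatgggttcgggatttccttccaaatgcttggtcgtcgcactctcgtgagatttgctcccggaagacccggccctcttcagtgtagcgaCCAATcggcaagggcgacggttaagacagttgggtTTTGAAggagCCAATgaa
Cdc6: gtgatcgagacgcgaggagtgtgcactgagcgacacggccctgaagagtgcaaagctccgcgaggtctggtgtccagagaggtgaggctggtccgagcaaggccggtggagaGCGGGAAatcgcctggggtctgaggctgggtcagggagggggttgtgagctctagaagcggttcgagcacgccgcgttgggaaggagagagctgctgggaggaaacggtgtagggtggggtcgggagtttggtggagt
Cdc7: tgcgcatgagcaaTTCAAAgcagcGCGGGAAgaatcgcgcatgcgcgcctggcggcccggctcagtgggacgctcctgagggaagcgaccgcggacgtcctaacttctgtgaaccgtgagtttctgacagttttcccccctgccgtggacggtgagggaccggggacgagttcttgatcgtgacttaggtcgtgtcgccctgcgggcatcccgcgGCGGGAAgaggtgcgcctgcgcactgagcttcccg

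In windows from 250 bases before to 50 after the start, a CHR was found in 78.8% of 52 promoters of G2/M genes, in 20% of 30 promoters of the other S phase genes and in 42.1% of 19 helicase gene promoters, against 27.6% of all 32851 promoters. The E2F-type motif was in 1.92%, 43.3% and 47.4% of them, against 4.60% of all promoters, so helicase gene promoters exceeded the share of all promoters for both. The CCAAT box was in 75%, 60% and 63.2%, against 37.4% of all. Promoters of 13 cytotoxic genes, 15 in number, held a CHR in 60%, a CCAAT box in 26.7% and the E2F-type motif in 0%. Sequences were matched for 47 of 55 G2/M, 27 of 36 S phase and 17 of 23 helicase genes. A match is a stretch of letters and was not tested as a binding site.

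Genes of the G1 to S transition were higher for 11 of 16 by over 2-fold, with a median of 1.66. Ccne1, cyclin E1, was at 3.63 and E2f1 at 2.49, whereas the D-type cyclin Ccnd2 was lower in members, at −0.60, Ccnd3 was at 0.77 and Myc at 0.28 (−0.35 to 0.97). Replication checkpoint and repair genes were over 2-fold higher for 13 of 22, with a median of 1.54. They included Chek1, the S phase checkpoint kinase, at 4.44 (2.56 to 7.51), Brca1, a recombination repair gene, at 47.9 against 1.78 CPM and 4.75 (3.19 to 7.04), and H2afx, the histone variant marked at DNA breaks, at 189 against 52.7 CPM and 1.85. Atr, which activates CHK1, was at 0.89 (−0.02 to 1.93), and Trp53bp1 at −0.10 (−0.78 to 0.61). The 19 measured p53 target genes had a median of −0.09, and none passed 2-fold either way, with 1 over 2-fold higher in the window. Among them Mdm2 was at −0.22 (−0.58 to 0.15).

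The 15 brake and quiescence genes had no common direction, with 2 over 2-fold higher, 1 over 2-fold lower and a median of −0.32, and with 1 and 0 in the window. Btg1, an antiproliferative gene of resting lymphocytes, gave 1 to 44 UMIs with a median of 11 in dividing and 1 to 61 with a median of 10 in non-dividing CD8 barcodes, despite the greater depth of the former. That was 475 against 1150 CPM, a log2 ratio of −1.27 (−1.36 to −1.19), and −0.57 in the depth window. Cdkn1b, the p27 inhibitor of G1 kinases, was at 77.7 against 124 CPM (−0.68), and −0.45 in the window. Cdkn2a, the locus of p16 and ARF, was higher in members, at 49.0 against 14.8 CPM (1.73), and 0.99 in the window. Rbl1, the pocket protein p107, was at 1.85. Cdkn1a, the p21 gene, was at 53.3 and 54.5 CPM (−0.03), or 0.55 without the mixed barcodes and 0.61 (0.05 to 1.21) in the window.

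Biosynthesis genes were higher in members by smaller steps. Of 18 nucleotide synthesis genes 14 were over 2-fold higher, with a median of 1.39, and 10 of 17 in the window. They included the thymidine kinase gene Tk1 at 2.68, the mitochondrial folate enzyme gene Mthfd2 at 1.87 and Impdh2, the guanine nucleotide enzyme, at 1.48. All 13 oxidative phosphorylation genes were higher but none by 2-fold, with a median of 0.54 and of 0.22 in the depth window, where 12 of 13 were higher. Cox5a, a subunit of cytochrome oxidase, was at 0.71 and Ndufa4 at 0.67. Of 17 glycolysis genes 14 were higher, 2 by over 2-fold, with a median of 0.35. Those were Tpi1 at 1.42 and Pgk1 at 1.05, which fell short of 2-fold in the window, at 0.65 (0.12 to 1.21) and 0.43 (0.17 to 0.69), where 11 of 17 were higher and none by 2-fold. Gapdh was at 1770 against 1170 CPM (0.60), 0.28 in the window.

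Most naive and memory genes were lower in dividing CD8 barcodes, 13 of 14 measured. Of 14 measured genes 7 were over 2-fold lower and none over 2-fold higher, with a median of −0.999, or −0.64 with 5 over 2-fold lower when mixed barcodes were left out, and −0.49 with 2 over 2-fold lower and 1 over 2-fold higher in the depth window. Tcf7, the transcription factor of stem-like T cells, ranged from 0 to 11 UMIs in dividing and from 0 to 10 in non-dividing CD8 barcodes with medians of 0, at 21.9 against 61.6 CPM, a log2 ratio of −1.49 (−1.90 to −1.08) and −1.26 in the window. After thinning it was found in 5.36% and 13.8% of barcodes. Il7r, the survival receptor of memory cells, was at 25.3 against 58.6 CPM (−1.21), or −0.91 (−1.58 to −0.22) in the window, and Ccr7, the lymph node homing receptor, at 52.2 against 114 CPM (−1.13), or −0.65 without the mixed barcodes and −0.92 in the window. Bach2, a repressor of effector programmes, was at −2.14, and −2.98 in the window. In the window 10 genes of the list were lower and 4 higher. Among them Lef1 at 0.13 (−0.33 to 0.61), S1pr1 at 0.16 (−0.53 to 0.89) and Slamf6 at −0.12 (−0.66 to 0.45) were not separated from 0. Id3 was at −3.07 with 63% of the non-dividing UMIs in 1 barcode, at −0.15 without the mixed barcodes and at 1.83 with an interval of −1.03 to 7.28 in the window, so its direction was not resolved.

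Interferon-stimulated genes were lower as well, 14 of 15, with 7 over 2-fold lower and a median of −0.82, or −0.68 without the mixed barcodes and −0.69 in the depth window with 4 of 11 over 2-fold lower. Isg15, the ubiquitin-like modifier, was detected in 12.5% of dividing and 28.9% of non-dividing CD8 barcodes after thinning, and stood at 39.4 against 120 CPM (−1.61; −1.91 to −1.31), with −1.08 in the window. Rtp4 was at −2.02 and Ifit1 at −3.17, the latter with 29% of the non-dividing UMIs in 1 barcode, and in the window they stood at −1.40 and −1.54, with an interval of −3.23 to 0.12 for Ifit1. In all T barcodes the list had a median of −1.15, with 12 of 16 over 2-fold lower.

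Of 8 measured effector cytokine and chemokine genes 1 was over 2-fold higher and 3 over 2-fold lower in dividing CD8 barcodes, with a median of −0.33, and in the window 2 of 7 were higher and 1 lower by as much. Ccl5, the chemokine RANTES stored by cytotoxic cells, was in nearly every CD8 barcode, 97.0% of dividing and 95.6% of non-dividing, with 0 to 466 UMIs and a median of 60.5 in the former and 0 to 443 and a median of 70 in the latter. At 2954 against 9476 CPM its log2 ratio was −1.68 (−1.72 to −1.65), and −0.94 in the depth window. The cytokine gene Ltb was at 334 against 690 CPM (−1.05), and −0.51 in the window. Xcl1, a chemokine for cross-presenting dendritic cells, was at −1.62, with 24% of dividing and 25% of non-dividing UMIs in 1 barcode each. Ifng, interferon gamma, was at 95.4 against 80.6 CPM (0.24; −0.04 to 0.53). Of the inflammatory chemokine genes, Ccl3 was at 57.8 against 23.7 CPM (1.29; 0.80 to 1.80) and Ccl4 at 114 against 107 CPM (0.09; −0.15 to 0.35). In the window they stood at 1.06 (0.52 to 1.63) and 1.48 (1.08 to 1.90). Of the dividing UMIs 45% for Ccl3 and 50% for Ccl4 came from 1 barcode, and of the non-dividing ones 52% and 25%. Summed over the list, effector cytokines and chemokines were at 3591 CPM in dividing and 10468 CPM in non-dividing CD8 barcodes, most of it Ccl5.

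Granzymes and cytotoxic genes had 1 of 14 over 2-fold higher and 1 over 2-fold lower, with a median of −0.17, and −0.56 in the depth window with 10 lower and 4 higher, 5 and 1 of them by over 2-fold. Gzmb ranged from 0 to 176 UMIs with a median of 8 in dividing and from 0 to 72 with a median of 1 in non-dividing CD8 barcodes, at 623 against 557 CPM, a log2 ratio of 0.16 (0.05 to 0.27). In the window the direction was the opposite, with 572 against 808 CPM and −0.50 (−0.63 to −0.36). Prf1, the pore-forming perforin, was at 198 against 194 CPM (0.03; −0.16 to 0.21), and at −1.15 (−1.40 to −0.90) in the window. Gzmf was at 122 against 375 CPM (−1.62), and −2.43 in the window, but 26% and 23% of its UMIs came from 1 barcode in each set and it was detected in 12.5% and 12.6% of barcodes. Gzmd (−0.71), Gzme (−0.76) and Gzma (−0.29) were also lower, and more so in the window, at −1.26 (−1.43 to −1.09), −1.05 (−1.22 to −0.88) and −1.94 (−2.25 to −1.64). Of the UMIs in all dividing CD8 barcodes, 36.2% for Gzma and 25.8% for Gzmd came from 1 barcode. The 4 genes higher in the window were Gzmk at 0.35 (0.02 to 0.68), Gzmm at 1.02 (−0.26 to 2.58), Ctsw at 0.04 and Fasl at 0.003. Gzmc was at 1.33 overall and −0.59 (−1.18 to 0.02) in the window. Cytotoxic transcripts were thus present in dividing CD8 barcodes, and the values of Gzmb, Prf1 and Gzmc were lower in the depth window than overall.

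The list of checkpoint receptors, Tox and Nr4a factors had a median of −0.05 over 13 genes. None was over 2-fold higher and 1, Tigit at −1.21, over 2-fold lower, against 1 and 3 in the window. The 1 gene higher there was the transcription factor gene Nr4a1, at 1.37 (0.67 to 2.15), and no receptor passed 2-fold upward. Pdcd1, which encodes PD-1, was at 321 against 269 CPM (0.25; 0.10 to 0.41), and −0.10 (−0.31 to 0.11) in the depth window. Havcr2, or TIM-3, was at 161 against 115 CPM (0.49), and −0.41 (−0.70 to −0.11) in the window, so that the direction of Havcr2 turned there and that of Pdcd1 was not resolved. Lag3 was lower in both, at 70.3 against 138 CPM (−0.97), and −1.29 in the window. Tox, the transcription factor of exhaustion, was at −0.25. The 12 costimulatory genes had a median of −0.27 with none past 2-fold and the 15 transcription factors a median of −0.06, with only Prdm1, or BLIMP-1, past it at 1.05, and 0.48 in the window. Irf8 was at 0.60, and −0.51 in the window.

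In the remaining lists few genes passed 2-fold. Cytokine receptors had a median of −0.21 with 2 of 11 over 2-fold lower, namely Il7r and Il4ra at −1.39. In the window neither passed 2-fold, with Il4ra at −0.49 (−1.13 to 0.18), while 10 of 11 were lower and the median was −0.49. Apoptosis regulators were at −0.05, homing receptors at −0.28, with Cxcr6, the receptor of tumour-resident CD8 cells, at 240 against 426 CPM (−0.83), regulatory genes at −0.27 over 8 measured genes, and T cell identity genes at −0.29. Without the mixed barcodes, the lowest ratios of single genes outside the lists were those of the histone demethylase Kdm5b (−3.37), Tcp11l2 (−2.83), Tbc1d4 (−2.31), Gzmg (−2.003), Esm1 (−1.91), Slfn1 (−1.80), a gene linked to T cell quiescence, and Crebrf (−1.63), beside Ccl5, Gzmf and Rtp4. With the mixed barcodes included the lowest 10 were Col1a2, Col1a1, Col3a1, Postn, Bgn, Cpxm1, Sfrp2, Gpx3, Dcn and Sparc, of which Dcn and Sfrp2 had no UMI in dividing CD8 barcodes.

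**Figure D4:**
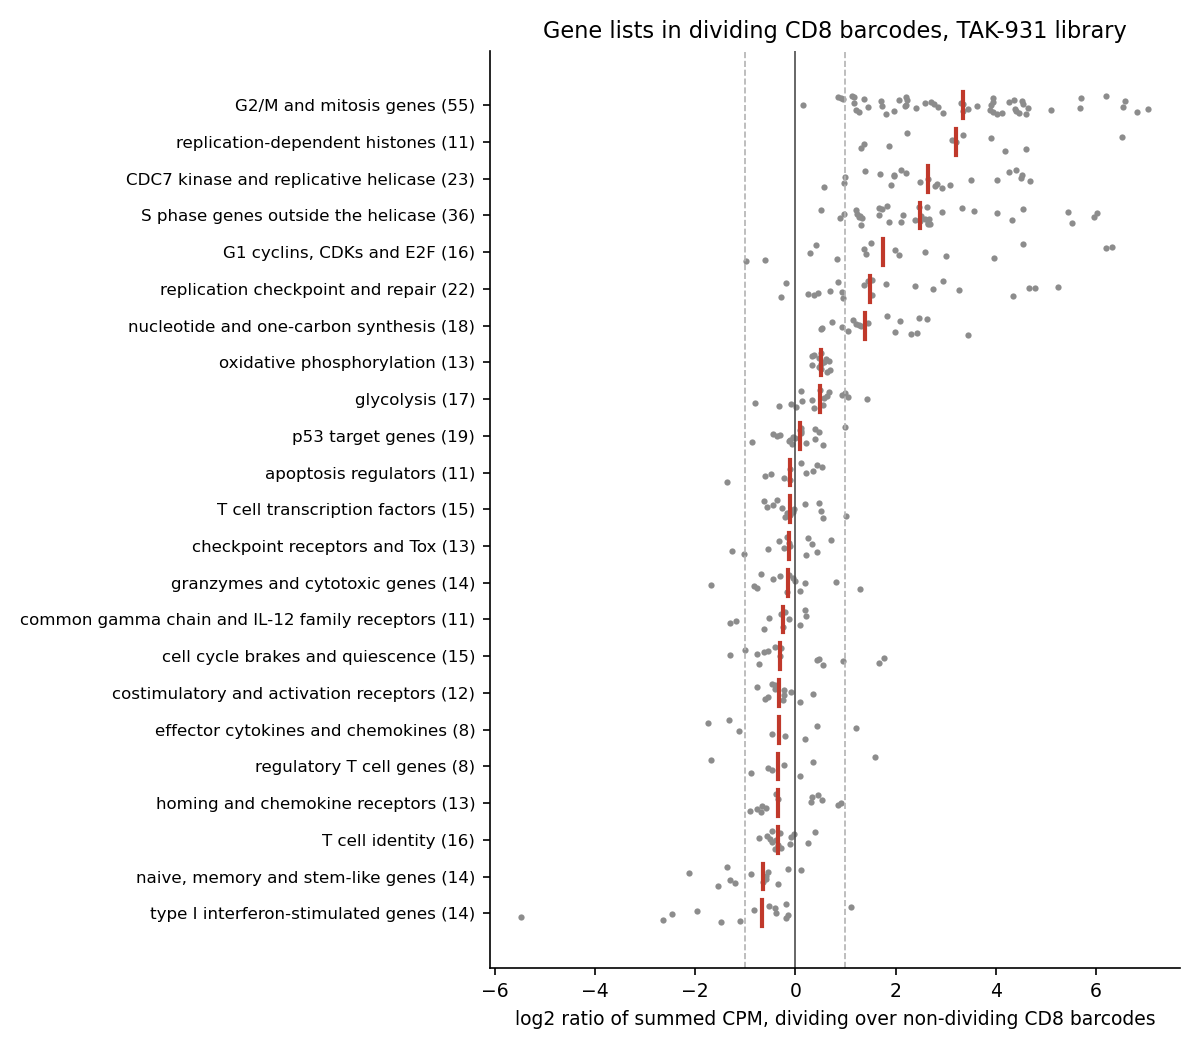
Log2 ratio of dividing to non-dividing CD8 barcodes of the TAK-931 tumour (horizontal axis), mixed barcodes left out, for each gene (point) of the functional lists, with the number of genes in parentheses, a red bar at each median and dashed lines at 2-fold. G2/M genes had a median of 3.34 (2.95 with genes at 0 at their bound) and histones of 3.20, and the naive and interferon lists medians of −0.64 and −0.68.

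Dividing CD8 barcodes were then set against dividing CD4 barcodes, 168 against 25, at median depths of 23314 and 26446 UMIs. Of 7109 genes 6.61% were over 2-fold higher in CD8 and 4.98% over 2-fold lower, and the median log2 ratio over 10242 genes was 0.01. The cycle genes had medians of 0.24 for the helicase list, 0.32 for S phase, 0.20 for G2/M and −0.19 for histones, and few passed 2-fold. Of the 36 S phase genes 32 were higher in CD8, and their summed log2 ratio was 0.40 (0.34 to 0.47). Of the 25 CD4 barcodes 2 were mixed, and the coreceptor genes that define the sets are not results.

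Cytotoxic genes were over 2-fold higher in CD8 for 11 of 14, with a median of 1.80, or 1.64 with genes at 0 set to their bound. Gzme was at 254 CPM with no UMI in CD4 barcodes, at least 60.2-fold higher against the floor of 3 counts, with a log2 lower bound of 5.61 from the exact interval, Gzmd at 231 CPM at least 54.8-fold and Gzmf at 122 CPM at least 28.9-fold. Gzmb was expressed in both, at 623 and 217 CPM (1.53; 1.29 to 1.77), and Prf1 at 198 and 83.0 CPM (1.25). Fasl, the death ligand, was at 91.1 CPM against 4.22 CPM from 3 UMIs (4.43; 2.88 to 6.72). The NK-type receptor genes Klrc1 and Klrc2 were at 4.15 and 4.01 and the protease inhibitor Serpine2 at 4.33. Slc17a6 was at least 10.2-fold higher. Gzma went the other way, at 161 against 1540 CPM (−3.25), but 99.0% of its CD4 UMIs came from 1 barcode.

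Chemokines and factors of CD8 effector cells followed. Ccl5 was at 2954 against 690 CPM (2.10; 1.97 to 2.23), Ifng at 95.4 against 8.44 CPM (3.499), Cxcr6 at 240 against 23.9 CPM (3.33) and Eomes, the T-box factor of CD8 cells, at 150 against 26.7 CPM (2.49). Effector cytokines were over 2-fold higher for 5 of 7, with a median of 2.10. Genes of the list of checkpoint receptors, Tox and Nr4a factors were mixed, 4 of 13 higher and 2 lower by over 2-fold. So were naive genes, 2 of 14 higher and 6 lower.

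Regulatory genes were higher in the dividing CD4 barcodes. Of 10 measured regulatory genes 10 were over 2-fold lower in CD8, with a median of −2.71. Ikzf2, the factor HELIOS, was at 196 against 1260 CPM (−2.68), Ctla4 at 105 against 600 CPM (−2.52), Tnfrsf4, or OX40, at 67.9 against 582 CPM (−3.10), and Tnfrsf18 and Il2ra at −1.82 and −1.50. Foxp3 itself was at 0.896 against 225 CPM. Outside the lists, Maf was at −6.44, Izumo1r, the folate receptor of regulatory cells, at −5.73, Ramp1 at −4.38, Serpina3g at −4.35 and Penk at −4.21, the last with 61% of its CD4 UMIs in 1 barcode. Costimulatory genes were over 2-fold lower in CD8 for 5 of 12, among them Icos at −1.51.

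Interferon-stimulated genes were also lower in dividing CD8 than in dividing CD4 barcodes, 11 of 14 by over 2-fold, with a median of −1.51. Isg15 was at 39.4 against 200 CPM (−2.34; −2.67 to −2.01), Ifi27l2a at 460 against 4216 CPM (−3.20) and Iigp1 at −3.77. Whether these differences belong to lineage or to a few of the 25 CD4 barcodes was not tested.

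**Figure D5:**
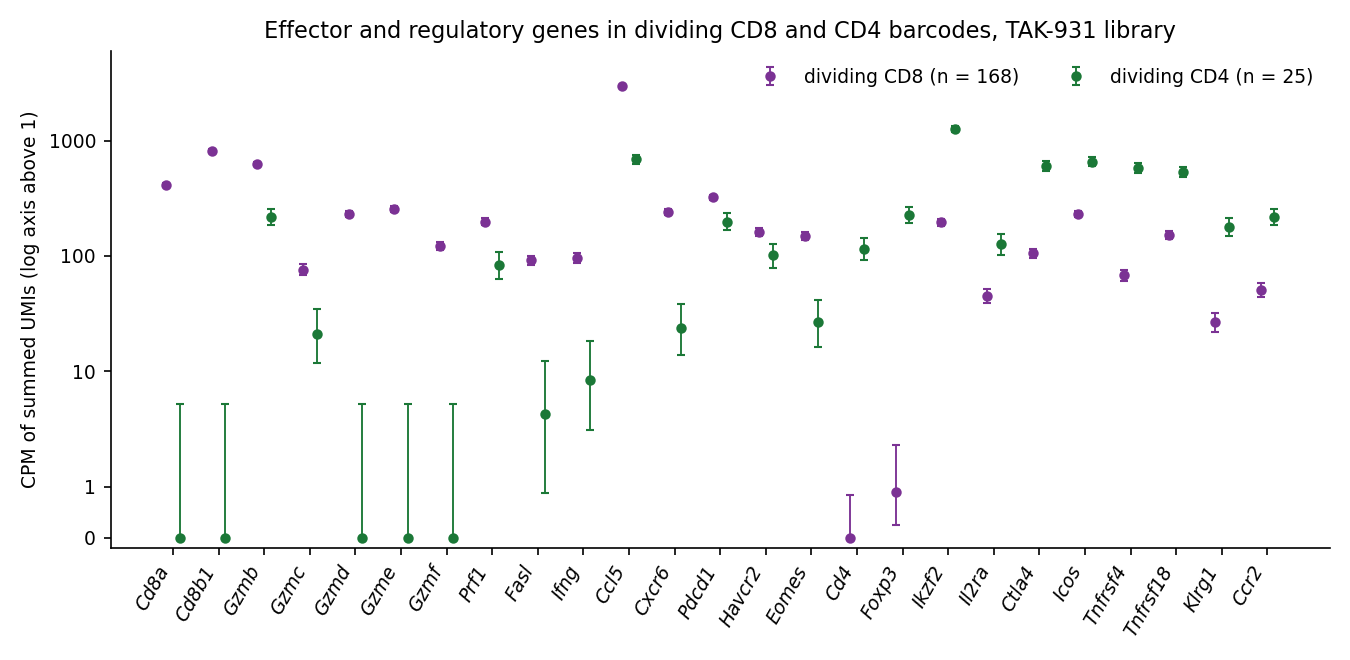
CPM (axis linear near 0 and logarithmic above) of selected effector and regulatory genes in dividing CD8 (168) and dividing CD4 (25) barcodes of the TAK-931 tumour, with exact 95% counting intervals. Gzme was at 254 CPM in CD8 with no UMI in CD4, and Ikzf2 at 196 CPM in CD8 and 1260 CPM in CD4.

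Receptor usage was read from Trbv segments, the variable genes of the T cell receptor beta chain. Exactly 1 segment was detected in 82 of 168 dividing CD8 barcodes (76 had none and 10 more than 1) and in 56 of 159 non-dividing ones (95 and 8), spread over 11 and 10 segments. Trbv13-1 was the commonest in both, at 36.6% and 35.7%, a difference of 0.871 points (−15.4 to 16.5). Trbv2 was at 19.5% and 7.14%, a difference of 12.4 points (0.224 to 23.1), the one interval of 5 compared that did not include 0, with no adjustment for the 5. Trbv20 was at 15.9% and 25%, −9.15 points (−23.3 to 4.21), Trbv13-2 at 9.76% and 8.93% and Trbv4 at 8.54% and 7.14%. Dividing CD8 barcodes thus used many segments, and 3′ counts do not show clones.

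The exclusions of the rule took away further barcodes with Cd3, Mki67 and Top2a UMIs. Before them, 348 barcodes of the TAK-931 tumour and 13 of the vehicle tumour met the Cd3 and the Mki67 and Top2a limits. The limit on Csf1r and C1q genes alone removed 101 barcodes in the TAK-931 tumour, with 3 to 692 such UMIs and a median of 5. Of these 30 had at least 10 such UMIs and 25 at least 50. They were deeper, at a median of 31650 UMIs, and had a median of 59.5 T cell identity UMIs per 10000, against 86.5 in members and 0 in macrophage-like barcodes. Their macrophage markers had a median of 5.95 per 10000, against 2.05 in members and 208 in macrophage-like barcodes, but the upper quartile was 56.4, against 3.20 in members. By coreceptor, 70.3% were CD8 (71), 10.9% CD4 (11), and 14.9% carried Foxp3 (15), shares near those of the members. Whether they were doublets, T cells with free macrophage RNA, or both, was not tested.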

How the data were processed

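Droplet 3′ libraries of 1 vehicle-treated and 1 TAK-931-treated J558 tumour were used. The authors deposited raw UMI counts per gene and cell barcode, made with Cell Ranger 6.0.0 on mm10 per the submitters' processing notes (the methods name a human build), with no normalization. The members, the gene lists and the named gene rule were chosen with earlier results of these data known. Of 32285 features all were read. The limits of 2000 genes and 15% mitochondrial UMIs were those of the methods, and barcodes were classed by the UMI limits given above. Counts were summed over barcodes and divided by their total for CPM. Log2 ratios carry exact intervals conditional on the 2 totals, with 0.5 UMI added only where a count was 0, and a ratio against 0 was set from a floor of 3 counts over the set. Shares carry Clopper-Pearson intervals and differences of shares Newcombe intervals, at 95%. These cover counting error only, since each group had 1 library. Genes entered lists with at least 10 UMIs and the background with at least 50 in both sets together, and the ranking with at least 50 in the set where they were higher, and a gene was counted as higher or lower past 2-fold. Barcodes were thinned once to 4000 UMIs with a fixed seed.

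Every gene of the 32 lists could be named. Beyond these, the 15 highest and 15 lowest ratios in all T barcodes and the 10 highest and 10 lowest in the other comparisons were named, ranked by the interval bound nearest 0, without mitochondrial, ribosomal, immunoglobulin, receptor segment and unnamed genes, the genes of the rule and, at the high end, the cycle lists. One listed gene was not among the features. The removal of mixed barcodes, the depth window and the E2F-type motif were chosen after seeing the data. The calculations were tested on simulated data (Python 3.11.15 with matplotlib 3.10.9, scipy 1.17.1 and numpy 2.4.6). Promoters were from RefSeq on GRCm38.p6.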

Additional observations from a re-analysis of the deposited data

Results flagged for a closer look

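The limit on Csf1r and C1q UMIs left out 123 barcodes of the TAK-931 tumour that otherwise met the Cd3 and the Mki67 and Top2a limits, against 1 in the vehicle tumour, and 22 of these also exceeded the Trap1a limit. They enter no comparison of the report beyond the account of what the rule left out. A further 4 barcodes of the TAK-931 tumour, against 0 in the vehicle tumour, met the rest of the rule with at most 2000 genes.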

How the results depend on the processing

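With 1 library per group no replicate could be left out. No paired analysis was possible because each group had 1 library. Over 21 settings, 190 of the values that answer a comparison moved by less than their interval or 1.5 times and 22 moved further. The dividing share of T barcodes in the TAK-931 tumour was 46.1% with a limit of 2 Mki67 and Top2a UMIs, 28.3% with 8, 24.5% with over 1000 genes, 23.8% with over 500 genes and 28.5% with no Trap1a, Csf1r or C1q UMI allowed, and any Mki67 or Top2a UMI was found in 30.1% when barcodes were thinned to 2000. In the vehicle tumour the share was 15.4% and 12.9% with over 1000 and over 500 genes, and 5 members passed a limit of 8. With no Trap1a, Csf1r or C1q UMI allowed, 77 TAK-931 members were left and the Foxp3 difference was 3.97 points, and it was −12.8 points at 10000 to 30000 UMIs. In all T barcodes the naive list median, −0.69, was −1.58 with over 1000 genes, −1.59 with over 500, −0.999 in CD8 alone and −0.40 at 10000 to 30000 UMIs. In this section that setting took all T barcodes and kept the mixed ones, unlike the depth window of CD8 barcodes above. The interferon median, −1.15, was −0.71 without the deepest 10% of barcodes and −0.76 without mixed barcodes. The cytotoxic median, 0.29 in all T barcodes with an interval of −0.02 to 0.44, turned to −0.17 in CD8 alone and −0.16 at 10000 to 30000 UMIs. It was 0.67 with no myeloid limit. The median of oxidative phosphorylation, 0.57, was 0.33 at 10000 to 30000 UMIs. Of the other values 359 stayed, 31 moved and 3 with intervals clear of 0 changed sign. These were the T cell identity median, 0.12 at 10000 to 30000 UMIs and 0.27 with no myeloid limit, and the costimulatory median, 0.045 with no myeloid limit. The causes were not tested. The vehicle values rest on 8 members and 23 T barcodes, which give wide intervals.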
